A study of Mus musculus with 44 samples.

Results

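Type 2 deiodinase, the product of Dio2, converts thyroxine (T4) inside cells into the active thyroid hormone T3. Dio2, the receptor genes Thra and Thrb and the receptor partner gene Rxrg were followed in mouse left ventricle. These are 4 of the 12393 genes named on the array, and every probe set annotated to them was taken: 3 for Dio2, 2 for Thra, 1 for Thrb and 1 for Rxrg, or 7 of 22690. Dio2 was selected on its higher level in PKCε mice and its lower level under the antibody, so its values in those comparisons, and in every comparison of the sexes that includes PKCε IgG mice, are given as a description, without a test. Dio2 was tested for the antibody within FVB mice and for sex within FVB mice or PKCε FG-3149 mice. These arrays served in the choice, but the sex differences did not. The choice named a fall under the antibody without naming a line, so the antibody test within FVB mice is not independent of it.

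The study asked how inhibition of connective tissue growth factor (CTGF) alters gene expression in a mouse model of dilated cardiomyopathy. PKCε mice carry a rabbit protein kinase C epsilon made constitutively active by the mutation A159E, expressed in cardiomyocytes from the mouse Myh6 promoter on the FVB/N background. Their controls were nontransgenic FVB/N mice, called FVB here. Mice of each line received nonimmune mouse IgG or FG-3149, the antibody against CTGF, in intraperitoneal injections of 30 mg/kg, with 2 injections each week. Treatment began at 3 months of age and lasted 3 months, and tissue was taken at 6 months. One Affymetrix 430A 2.0 array was run per mouse from 250 ng of RNA. There were 10 FVB IgG mice (7 female, 3 male), 12 FVB FG-3149 mice (6 female, 6 male), 10 PKCε IgG mice (5 female, 5 male) and 12 PKCε FG-3149 mice (6 female, 6 male). The Myh6 promoter that drives the transgene belongs to a gene that T3 itself raises, which limits the line as a model for thyroid hormone signalling. In PKCε IgG mice the males were numbered 192 to 196 and the females 322 to 362, so sex and place in the numbering cannot be told apart in that group. The treatments held separate numbers as well. PKCε FG-3149 mice were numbered 38 to 191 and PKCε IgG mice 192 to 362. FVB FG-3149 mice were numbered 338 to 349 and FVB IgG mice 420 to 443. Antibody and place in the numbering therefore cannot be told apart in either line. Within each treatment the PKCε mice all had lower numbers than the FVB mice. Line and place in the numbering cannot be told apart either.

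T4 made by the thyroid is a prohormone. Deiodinases of types 1 and 2 activate it to T3 and the type 3 enzyme inactivates both hormones. T3 enters the nucleus and binds the receptors encoded by Thra and Thrb, which sit on target genes as dimers with a retinoid X receptor such as the product of Rxrg and exchange corepressors for coactivators when T3 binds. In the heart, where the Thra product is the main receptor, T3 raises the fast myosin Myh6 and the calcium pump Atp2a2 and lowers the slow myosin Myh7 and phospholamban (Pln). Dio2 is best known from brown fat, pituitary and brain, where cAMP raises its transcription, and its enzyme is removed through ubiquitination.

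The Dio2 promoter is shown because cAMP is the classical signal for this gene and because Dio2 varied most among the members. The 250 bases before the RefSeq start, chr12:90739039-90739288 on the minus strand of GRCm38.p6, held 1 copy of the consensus cAMP response element TGACGTCA, given in capitals, at bases 95 to 88 before the start.
Dio2: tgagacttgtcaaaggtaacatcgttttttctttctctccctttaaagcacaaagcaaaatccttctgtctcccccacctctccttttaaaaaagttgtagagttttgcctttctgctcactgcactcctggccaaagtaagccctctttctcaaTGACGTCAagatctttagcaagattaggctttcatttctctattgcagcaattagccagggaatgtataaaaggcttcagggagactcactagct
The motif reads the same on both strands, and it occurred in 508 of 32851 promoter windows of this length (1.55%). It was in neither of the 2 Thrb windows nor the 2 Rxrg windows. These matches describe letters and say nothing of a factor bound there.

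All values below are log2 ratios of a probe set on 1 array to its median over the 44 arrays, so 0 is the middle of the series, 1 is a doubling, and levels of different probe sets cannot be compared. Differences are log2 differences from 1 limma fit with a term for sex, given ± SE, and a probe set was called at an adjusted p under 0.05 (Benjamini-Hochberg over 22626 probe sets, two-sided).

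Dio2 1418937_at had an SD of 1.40 over the arrays, larger than that of 99.8% of all probe sets. In FVB IgG mice it ran from -1.20 to 0.79 with a median of -0.25. In FVB FG-3149 mice it ran from -1.90 to -0.66 with a median of -1.18. In PKCε IgG mice it ran from 0.20 to 3.82 with a median of 1.74. In PKCε FG-3149 mice it ran from -0.58 to 1.41 with a median of 0.38. The order of the group means was therefore PKCε IgG (1.85 ± 1.39, SD, n = 10), PKCε FG-3149 (0.36 ± 0.73, n = 12), FVB IgG (-0.22 ± 0.74, n = 10) and FVB FG-3149 (-1.27 ± 0.34, n = 12). Neighbours in this order overlapped in their single values, while all 12 PKCε FG-3149 mice lay at or above -0.58 and all 12 FVB FG-3149 mice at or below -0.66.

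The wide spread in PKCε IgG mice was a split between the females and the males, whose mouse numbers differ as well. The 5 PKCε IgG females stood at 3.36, 2.96, 2.54, 3.82 and 2.88, and the 5 males at 0.28, 0.95, 0.20, 0.72 and 0.80. All females lay above all males (4.57% of all probe sets separated upward in this way), and each of the 5 females lay above all 39 other arrays. The other Dio2 probe sets showed the split more sharply. Dio2 1418938_at stood at 1.83, 2.51, 1.61, 3.29 and 1.37 in the 5 PKCε IgG females and at -0.03, 0.32, -0.03, -0.10 and 0.29 in the males. Dio2 1426081_a_at stood at 2.45, 2.66, 1.87, 3.42 and 2.42 in the females and at 0.21, -0.00, -0.14, -0.23 and -0.20 in the males. At both, the males lay among the FVB mice, whose values ran from -0.20 to 0.47 for 1418938_at and from -0.27 to 0.34 for 1426081_a_at. Of all 22626 probe sets, 170 (0.751%) had every PKCε IgG female above every other array, and the 3 Dio2 probe sets were among them.

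**Figure D1:**
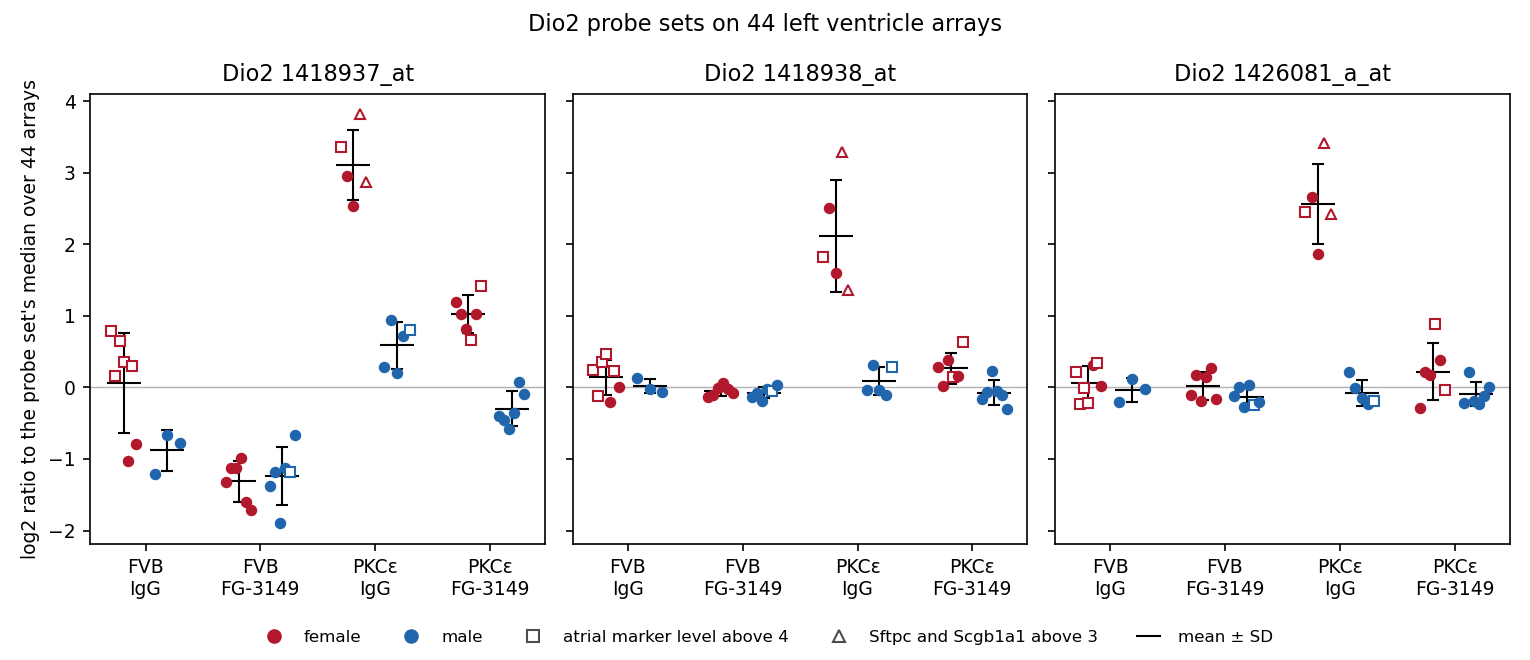
Log2 ratio of the 3 Dio2 probe sets on each array (y axis) by group (x axis), females in red and males in blue, with the mean ± SD of each group and sex as a bar. Open squares mark arrays with an atrial marker level above 4 and open triangles arrays with the lung markers Sftpc and Scgb1a1 both above 3. The 5 PKCε IgG females lie above all other arrays in every panel.

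PKCε IgG mice were compared with FVB IgG mice to ask what the transgene changed under the control antibody. Dio2 1418937_at was higher by 2.30 ± 0.28, or 4.92-fold. Dio2 1418938_at was higher by 1.12 ± 0.22 (2.18-fold) and Dio2 1426081_a_at by 1.37 ± 0.26 (2.58-fold). All 10 PKCε IgG mice lay above the FVB IgG median at 1418937_at, against 7 and 6 of 10 at the other probe sets. By sex, the 1418937_at difference was 3.05 in females and 1.47 in males. At 1418938_at it was 1.98 in females and 0.07 in males, and at 1426081_a_at 2.50 in females and -0.04 in males. In whole ventricle, more cells that transcribe Dio2 and more Dio2 RNA per cell cannot be told apart.

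At 1418938_at and 1426081_a_at Dio2 was higher in PKCε IgG mice through these 5 females, so its differences between the sexes rest on the values that chose it and are given without a test. In a fit of the 8 groups by line, treatment and sex, the PKCε effect under IgG was larger in females by 2.54 ± 0.26 at Dio2 1426081_a_at, by 1.91 ± 0.28 at Dio2 1418938_at and by 1.58 ± 0.38 at Dio2 1418937_at. The last was 2.54 without the arrays of high atrial markers described below, which left 2 FVB IgG females. In that setting 473 of 22626 probe sets were called for such a difference. With all 44 arrays 17 of 22626 were called (0.0751%). The excess of Thra, Thrb and Rxrg, which were not chosen by these values, lay between -0.16 and 0.17, and none was called by limma (0 of 4 had an unadjusted p under 0.05). Within PKCε IgG mice, Dio2 was higher in females by 2.52 ± 0.26, 2.03 ± 0.19 and 2.63 ± 0.18 at 1418937_at, 1418938_at and 1426081_a_at, where 10.4% of all probe sets were called between the sexes. These values compare the mice numbered 322 to 362 with those numbered 192 to 196 as much as females with males.

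FG-3149 was compared with IgG in PKCε mice to ask what blocking CTGF changed in the diseased ventricle. In this comparison, which helped to choose it, Dio2 differed by -1.49 ± 0.26 at 1418937_at (2.80-fold lower), by -1.01 ± 0.21 at 1418938_at and by -1.18 ± 0.25 at 1426081_a_at. PKCε FG-3149 females stood between 0.67 and 1.41 at 1418937_at, between 0.02 and 0.63 at 1418938_at and between -0.29 and 0.88 at 1426081_a_at. Each of these 6 females lay below each of the 5 PKCε IgG females at all 3 probe sets (2.3% of all probe sets separated downward in this way). PKCε FG-3149 males stood between -0.58 and 0.08 at 1418937_at, below all 5 PKCε IgG males (0.999% of all probe sets), and overlapped them at the other probe sets. The differences were -2.09, -1.85 and -2.34 in females and -0.89, -0.16 and -0.02 in males, in the order 1418937_at, 1418938_at and 1426081_a_at.

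The antibody effect in PKCε mice, females minus males, was -2.32 ± 0.24 at Dio2 1426081_a_at, -1.69 ± 0.26 at Dio2 1418938_at and -1.20 ± 0.35 at Dio2 1418937_at, again as a description of the 10 PKCε IgG mice that chose the gene. In this comparison 4 of 22626 probe sets (0.0177%) were called. Under FG-3149 alone, females exceeded males at Dio2 1418937_at by 1.32 ± 0.23 (adjusted p = 0.00103, limma; 1.69% of probe sets called), with all 6 females above all 6 males (1.41% of all probe sets). Dio2 1418938_at (0.34, adjusted p = 0.294) and 1426081_a_at (0.31, adjusted p = 0.314) were not called. Among the PKCε FG-3149 mice numbered 38 to 49, the 3 females ran from 0.67 to 1.41 at 1418937_at and the 6 males from -0.58 to 0.08, without overlap. In the same mice the sexes overlapped at 1418938_at (0.14 to 0.63 in females, -0.30 to 0.23 in males) and at 1426081_a_at (-0.04 to 0.88 and -0.24 to 0.21).

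**Figure D2:**
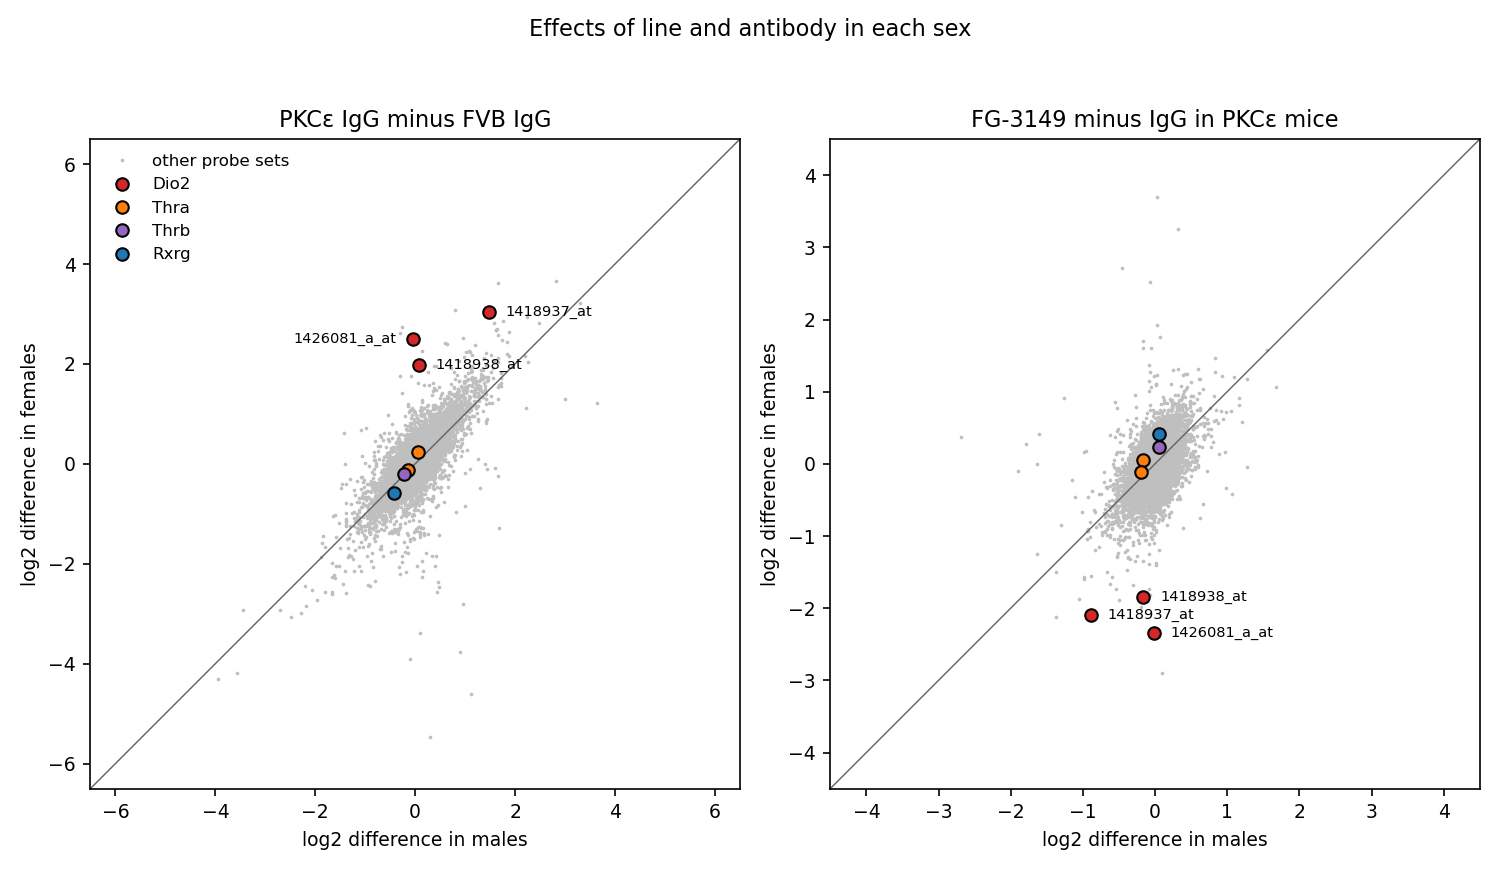
Log2 difference in females (y axis) against that in males (x axis) for all probe sets, for PKCε IgG minus FVB IgG on the left and FG-3149 minus IgG in PKCε mice on the right, with the 7 member probe sets coloured by gene and equal effects on the diagonal line. The Dio2 probe sets lie above the diagonal on the left (2.50 against -0.04 at 1426081_a_at) and below it on the right (-2.34 against -0.02).

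FG-3149 was also compared with IgG in FVB mice. For Dio2 this test is not independent of the choice, which named a fall under the antibody and used the FVB IgG arrays. Dio2 1418937_at fell by 0.83 ± 0.26 (adjusted p = 0.0431, limma), the 1 of 7 member probe sets that was called, with 8.35% of all probe sets called. All 12 FVB FG-3149 mice lay below the FVB IgG median. The FVB IgG values fell into groups that followed atrial markers (Sln, Myl7 and Myl4). On the 5 arrays with an atrial marker level above 4, all of them female, Dio2 1418937_at ran from 0.17 to 0.79. On the other 5 FVB IgG arrays, 2 female and 3 male, it ran from -1.20 to -0.67, within the -1.90 to -0.66 of FVB FG-3149 mice. Without the arrays above 4 the difference was -0.53 (adjusted p = 0.592), and with the atrial marker level as a covariate it was also -0.53 (adjusted p = 0.50). In the fit by sex it was -1.37 ± 0.23 in females (adjusted p = 0.000253; 7.76% of probe sets called) and -0.36 ± 0.29 in males (adjusted p = 0.85; 0.385%), but the females hold all 5 arrays of high atrial markers and the difference between the sexes was not tested. Brown and white adipocyte markers were lower under FG-3149 in FVB mice as well, for 4 of 7 genes with 0 higher: Ucp1 (-2.13), Adipoq (-2.25), Car3 (-2.36) and Cidec (-0.97). Cidea (-0.01), Elovl3 (-0.04) and Fabp4 (-0.11) were not called. Dio2 is best known from brown fat, and the list holds markers of white fat as well. The mean level of the 7 genes ran from -0.52 to 3.02 in FVB IgG and from -0.66 to 0.81 in FVB FG-3149 mice. It ran from 0.74 to 3.02 on the 5 FVB IgG arrays of high atrial markers and from -0.52 to 1.25 on the other 5. The part of these markers in the Dio2 difference was not tested. The other Dio2 probe sets differed by -0.04 and 0.07, neither called.

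**Figure D3:**
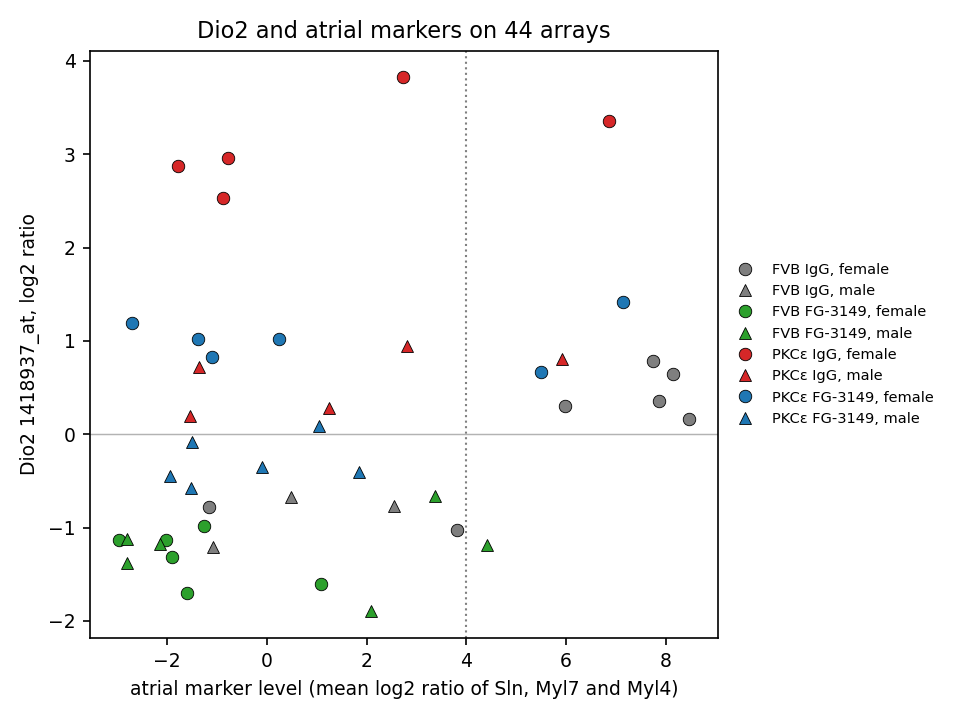
Log2 ratio of Dio2 1418937_at (y axis) against the atrial marker level, which averages the log2 ratios of Myl4, Myl7 and Sln (x axis), on 44 arrays, coloured by group, circles for females and triangles for males, with the level of 4 dotted. The 5 FVB IgG females to the right of the line lie between 0.17 and 0.79, and the other 5 FVB IgG arrays between -1.20 and -0.67, while the high PKCε IgG females lie on both sides of the line.

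In PKCε IgG mice 2 arrays, 1 of each sex, had an atrial marker level above 4, too few to see a division by atrial markers within a sex. At 1418937_at the female above 4 stood at 3.36 and the other 4 females between 2.54 and 3.82. The 5 males, 1 of them above 4, ran from 0.20 to 0.95. Without all arrays above 4 the PKCε effect at 1418937_at was 2.59 instead of 2.30. In 2 PKCε IgG females, replicates 9 and 10, the lung markers Sftpc and Scgb1a1 both exceeded 3; over 3 lung markers (with Sftpa1) the mean level ran from -0.26 to 8.76 in PKCε IgG and from -0.34 to 3.74 in FVB IgG mice. The remaining 3 females stood at 3.36, 2.96 and 2.54, above all 39 arrays of other groups and males. Without both arrays the PKCε effect was 2.03, 0.85 and 0.99 and the antibody effect in PKCε mice -1.24, -0.76 and -0.84 at 1418937_at, 1418938_at and 1426081_a_at. The sex difference of the PKCε effect without both was 2.30 ± 0.24 at 1426081_a_at and 1.77 ± 0.20 at 1418938_at. The adipocyte markers were lower in PKCε IgG than in FVB IgG mice for 5 of 7 genes and higher for 0, and their mean level in PKCε IgG mice ran from -0.76 to 0.42 against -0.52 to 3.02 in FVB IgG mice. Of 6 skeletal muscle markers none was called. All 6 fibroblast markers were higher in PKCε IgG mice, with a mean level of 0.24 to 1.15 against -0.73 to 0.29, and 2 of the 6 were lower under FG-3149 in PKCε mice; their part in the Dio2 difference was not tested. A clock score (Dbp, Hlf, Tef, Nr1d1, Nr1d2 and the 3 Per genes, less Arntl, Clock and Npas2) averaged -0.82 in PKCε IgG and 1.07 in PKCε FG-3149 mice. The 3' minus 5' difference of the Gapdh control probe sets, a sign of RNA quality, averaged 0.30 in PKCε IgG mice, 0.04 in PKCε FG-3149 mice and -0.04 in FVB IgG mice. With both as covariates and without the 2 arrays of high lung markers, the antibody effect in PKCε mice shrank to -0.65, -0.36 and -0.38 at the 3 Dio2 probe sets and the PKCε effect to 1.62, 0.60 and 0.73. Of 10 ventricular cardiomyocyte markers 3 were lower and 1 higher in PKCε IgG mice (median -0.07). Beside these marker counts, 20.7% of all genes were higher and 21.7% lower in PKCε than in FVB mice under IgG. Under FG-3149 in PKCε mice 5.07% were higher and 3.73% lower. Ratios hold no level, so whether a marker is absent cannot be read from them.

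In mice given FG-3149, PKCε exceeded FVB at Dio2 1418937_at by 1.64 ± 0.25 (3.11-fold), and all 12 PKCε mice lay above all 12 FVB mice (2.28% of all probe sets were separated upward in this way). At Dio2 1418938_at the difference was 0.16 ± 0.20 and at 1426081_a_at 0.12 ± 0.24. The antibody effect in PKCε mice minus that in FVB mice was -0.66 ± 0.37, -0.96 ± 0.30 and -1.25 ± 0.36 at the 3 probe sets. All of these share arrays with the contrasts that chose Dio2 and carry no test.

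Over all 44 mice, with group in the fit, Dio2 was higher in females by 1.13 ± 0.19 at 1418937_at, 0.61 ± 0.15 at 1418938_at and 0.77 ± 0.18 at 1426081_a_at, values that include the PKCε IgG females and carry no test. Rxrg and Thra 1426997_at were lower in females, so 2 of the 4 receptor probe sets were called, against 14.9% of all probe sets. The female excess of Dio2 1418937_at was -0.07 in FVB FG-3149 mice and 0.94 ± 0.28 in FVB IgG mice (adjusted p = 0.0865; 1.13% of probe sets called), where the atrial markers move with it.

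Rxrg, the retinoid X receptor gamma typical of striated muscle, ran against Dio2. In FVB IgG mice Rxrg 1418782_at ran from -0.60 to 0.44 with a median of 0.05. In FVB FG-3149 mice it ran from -0.03 to 0.53 with a median of 0.22. In PKCε IgG mice it ran from -1.22 to 0.15 with a median of -0.33, and in PKCε FG-3149 mice from -0.56 to 0.15 with a median of -0.20. Rxrg fell by 0.49 ± 0.097 in PKCε against FVB mice under IgG (adjusted p = 7.41e-05, limma) and by 0.42 ± 0.088 under FG-3149 (adjusted p = 0.000193). Under IgG 9 of 10 PKCε mice lay below the FVB median, and under FG-3149 all 12 did.

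PKCε IgG females were again low. Their Rxrg values were -0.79, -0.49, -0.36, -1.22 and -0.63, against -0.25, 0.01, -0.07, 0.15 and -0.29 in PKCε IgG males, so the sexes did not overlap (9.88% of all probe sets separated downward in this way). Females were lower than males by 0.61 on the log2 scale in this group (a difference of -0.61 ± 0.13, adjusted p = 0.00217, limma). There 10.4% of all probe sets were called, and sex cannot be told apart from place in the numbering. Over all mice the difference was -0.35 ± 0.066 (adjusted p = 0.000286, limma), where 14.9% of all probe sets were called. The PKCε effect itself did not pass the test for a sex difference at Rxrg (-0.16 ± 0.19, 95% interval -0.54 to 0.23, adjusted p = 0.843). The difference of Rxrg between FG-3149 and IgG in PKCε mice was 0.23 ± 0.092 and was not called (adjusted p = 0.117). In PKCε females the antibody difference was 0.41 ± 0.12 (adjusted p = 0.0272; 9.71% of probe sets called) and in males 0.05 ± 0.12, and the difference between the sexes was not called (0.37 ± 0.18, adjusted p = 0.633). In FVB IgG mice Rxrg too divided by atrial markers, from -0.60 to 0.04 on the 5 arrays above 4 and from 0.05 to 0.44 on the other 5. Without the arrays above 4 the PKCε effect under IgG was -0.59 (adjusted p = 0.000197).

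**Figure D4:**
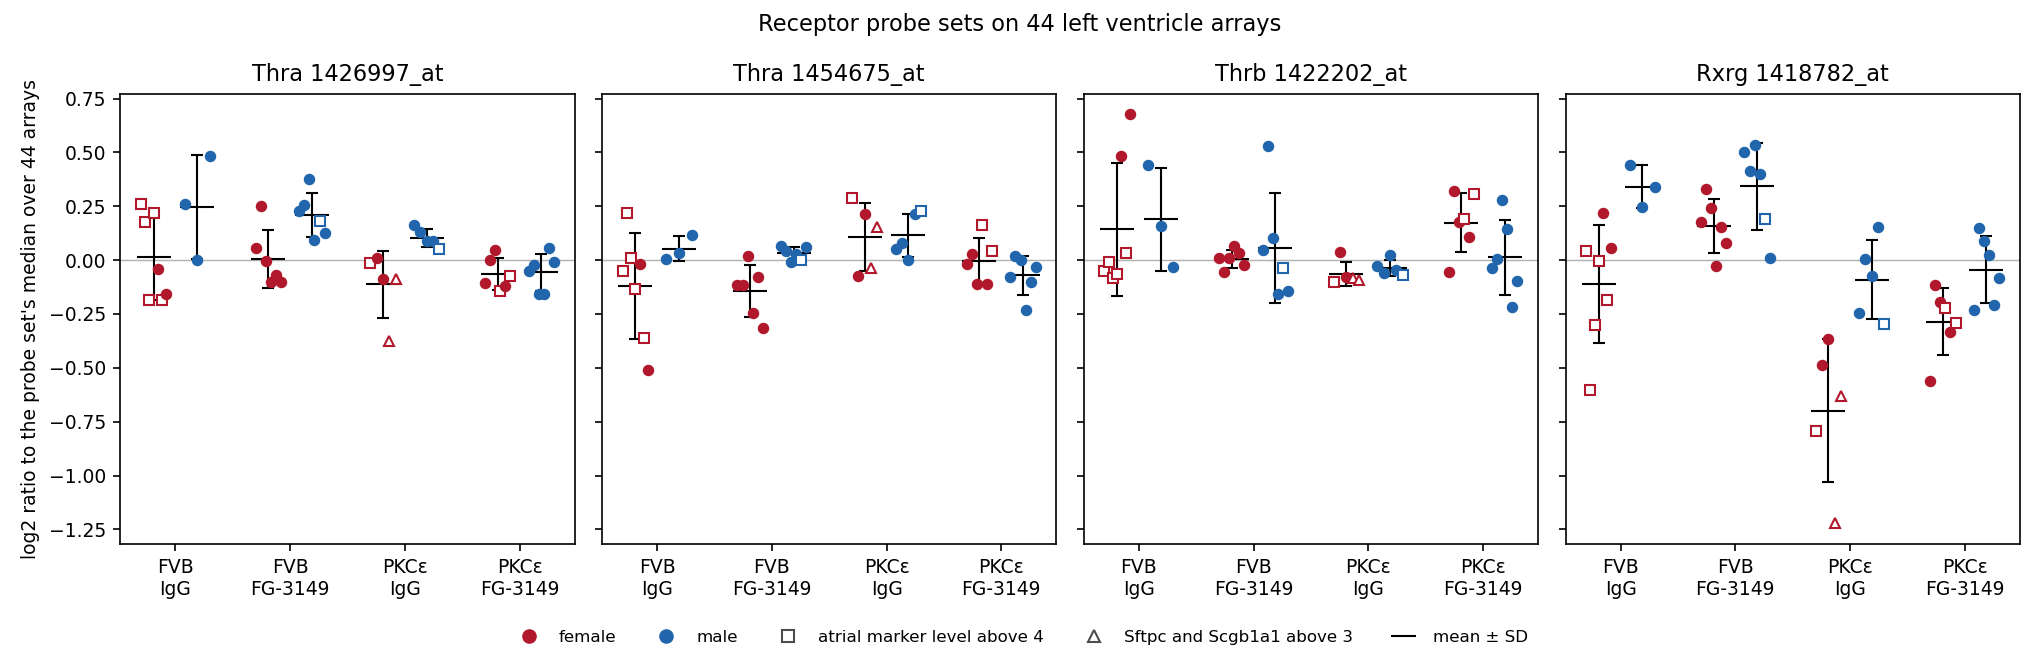
Log2 ratio of the Thra, Thrb and Rxrg probe sets on each array (y axis) by group (x axis), females in red and males in blue, with the mean ± SD of each group and sex as a bar; squares mark an atrial marker level above 4 and triangles both lung markers above 3. Rxrg in PKCε IgG females runs from -1.22 to -0.36, with 3 of 5 below all other arrays, while Thra and Thrb stay within -0.51 to 0.68.

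Thra, the gene of the main cardiac T3 receptor, differed by small amounts, and its 2 probe sets differed in opposite directions between the lines under IgG. Thra 1454675_at ran from -0.51 to 0.22 in FVB IgG mice and from -0.07 to 0.29 in PKCε IgG mice, and the difference of 0.17 ± 0.065 was called (adjusted p = 0.0356, limma). Thra 1426997_at ran from -0.18 to 0.48 in FVB IgG and from -0.38 to 0.16 in PKCε IgG mice, and its difference of -0.12 ± 0.063 was not called (adjusted p = 0.123). Under FG-3149 the other probe set was the one called. PKCε mice were lower than FVB mice at 1426997_at by 0.17 on the log2 scale (difference -0.17 ± 0.057, adjusted p = 0.0154), with all 12 below the FVB median, while 1454675_at differed by 0.02 ± 0.058 (adjusted p = 0.807). Females were lower than males at 1426997_at (-0.16 ± 0.043, adjusted p = 0.0102). Thra overlaps Nr1d1, the clock gene for REV-ERB alpha, on the opposite strand, and the Nr1d1 probe set 1426464_at differed by 0.25 ± 0.12 between the lines under IgG (adjusted p = 0.0773), by 0.44 ± 0.10 under FG-3149 (adjusted p = 0.000771) and by 0.30 ± 0.079 between females and males (adjusted p = 0.00763). The probe sets of the 2 genes carry their own probes and are given side by side.

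Thrb, the second T3 receptor gene, was lower in PKCε than in FVB mice under IgG by a difference of -0.20 ± 0.083 (adjusted p = 0.0483, limma). Its 10 PKCε IgG values lay in a narrow band from -0.10 to 0.04, while FVB IgG mice ran from -0.08 to 0.68. The 5 FVB IgG arrays of low atrial markers averaged 0.35 ± 0.28 (SD) and the other 5 -0.03 ± 0.047. Leaving out single arrays ended the Thrb call for 27 of 44 arrays and the Thra 1454675_at call for 7. In all, 3 of the 4 receptor probe sets were called between the lines under IgG, against 40.9% of all probe sets, and the 2 weaker calls, of Thrb and Thra 1454675_at, were both lost without the 2 arrays of high lung markers (adjusted p = 0.108 and 0.0542). Thra 1454675_at was also lost without the arrays of high atrial markers (adjusted p = 0.0850). Under FG-3149, 2 of 4 were called against 45.2%.

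None of the 4 receptor probe sets was called for FG-3149 against IgG in PKCε mice by limma (8.38% of all probe sets were; 2 of the 4, Rxrg and Thra 1454675_at, had an unadjusted p under 0.05). The differences were 0.23 at Rxrg, -0.15 at Thra 1454675_at (adjusted p = 0.134), 0.14 at Thrb (adjusted p = 0.30) and -0.06 at Thra 1426997_at (adjusted p = 0.638). None was called for the antibody effect in PKCε minus that in FVB (3.95% of all probe sets were); the lowest p there belonged to Thrb (0.26 ± 0.11, unadjusted p = 0.0234, adjusted p = 0.21), the 1 of 4 with an unadjusted p under 0.05.

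Other genes of the pathway were counted from lists, with the probe set of largest SD standing for each of 49 measured genes out of 61 listed. The lists were chosen with earlier results of these data known, so counts over them are a description. Among all 12393 genes so measured, 2564 were higher (20.7%) and 2691 lower (21.7%) in PKCε than in FVB mice under IgG, with a median of -0.05. Dio1, the type 1 deiodinase, was not called (-0.09 ± 0.057, adjusted p = 0.20). Of 4 transporter genes, Slco1c1, which carries T4, was lower (-0.68 ± 0.21, adjusted p = 0.00755) and Slc3a2, the heavy chain of the amino acid carriers that also move thyroid hormones, was higher (0.24 ± 0.080, adjusted p = 0.0169). The light chains Slc7a5 (0.18) and Slc7a8 (0.09) were not called. Of the 5 receptor genes, Rxra (-0.07 ± 0.060) and Rxrb (0.03 ± 0.056), the other retinoid X receptors, were not called.

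Of 10 coactivator and corepressor genes, 1 was higher and 4 were lower (median -0.12). The lowest p values belonged to Med1, a subunit of the Mediator complex (-0.61 ± 0.13, adjusted p = 0.000183), Hdac3, the histone deacetylase of the corepressor complex (-0.21 ± 0.053, adjusted p = 0.00125), Tbl1xr1 (0.43 ± 0.11, adjusted p = 0.00129) and Tbl1x (-0.24 ± 0.086, adjusted p = 0.0207), which encode other parts of that complex. Other probe sets of Med1 (1450402_at, 0.22), Tbl1x (1455042_at, 0.07) and Tbl1xr1 (1422761_at and 1450739_at, -0.14 and -0.12) had the opposite sign, none of them called. At the probe set standing for each gene, none of the 8 genes of deiodinase ubiquitination and selenoprotein synthesis was called by limma (1 had an unadjusted p under 0.05; median -0.07). Those of lowest p were Pstk (-0.26), Marchf6 (-0.07), Sephs2 (-0.10) and Usp20 (-0.11), although a further Usp20 probe set, 1423777_at, was higher (0.30, adjusted p = 0.00379) and a further Pstk probe set, 1434516_at, was lower (-0.34, adjusted p = 0.000424). The other Sephs2 probe sets, 1418325_at and 1449040_a_at, differed by 0.0021 and 0.0038. The hormone binding genes Crym (-0.17) and Ttr (0.66 ± 0.51) were not called.

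Of 14 measured genes on the list of those raised by T3, 12 were lower in PKCε mice and 1 higher, with a median of -0.55. Among all genes 21.7% were lower. The list was chosen with earlier results of these data known, so the count is a description. The lowest p values belonged to Thrsp, a lipogenic T3 target (-1.85 ± 0.13, adjusted p = 8.24e-15), Myh6, the fast myosin heavy chain (-1.49 ± 0.14, adjusted p = 2.53e-11), Me1, malic enzyme (-0.65 ± 0.072, adjusted p = 1.19e-09) and Slc25a4, the mitochondrial adenine nucleotide carrier (-0.61 ± 0.095, adjusted p = 1.74e-06). The probe set of largest SD gave larger differences than the others of some genes: Myh6 1448826_at differed by -0.17 (adjusted p = 0.000215), and the 3 other Slc25a4 probe sets by -0.06 to -0.17, all called. Hr, a corepressor, was the 1 higher gene (0.71 ± 0.13, adjusted p = 2.99e-05; its other probe set, 1422110_at, differed by -0.12) and Kcna5, a potassium channel, the 1 not called (-0.02). Both were named after their values were seen, as was Atp1b1, which was lower (-0.24) while its 4 other probe sets had positive differences, 2 of them called (0.16 and 0.33). Of 4 genes lowered by T3, Myh7, the slow myosin heavy chain, was higher (3.22 ± 0.13, adjusted p = 8.53e-22), while Pln, the inhibitor of the calcium pump (-0.41 ± 0.067, adjusted p = 3.59e-06) and Adcy6, an adenylyl cyclase (-0.21 ± 0.075, adjusted p = 0.0251) were lower and Slc8a1, the sodium-calcium exchanger, was not called (-0.25, adjusted p = 0.0731; its probe set 1425817_a_at differed by 0.12). The genes of both lists also answer to other signals in a failing ventricle, and T3 was not measured. The adipocyte markers Adipoq (-2.25) and Car3 (-2.22) were also lower in this comparison, while Cidea and Fabp4 were not called. The part of fat in the differences of lipogenic genes such as Thrsp was not tested. In males alone, with 3 FVB IgG and 5 PKCε IgG mice, 7 of the 14 genes raised by T3 were lower. The share of all genes called in males alone is not given, so the smaller count cannot be read as a sex difference.

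In PKCε mice few genes of the lists were called for FG-3149 against IgG. Among all 12393 genes 628 were higher (5.07%) and 462 lower (3.73%), with a median of 0.02. Of the 14 genes raised by T3, 4 were higher and 0 lower, with a median of 0.25. They were Myh6 (0.62 ± 0.13, adjusted p = 0.00256), Atp2a2, the calcium pump (0.31 ± 0.089, adjusted p = 0.0236), Klf9, a T3-responsive transcription factor (0.32 ± 0.093, adjusted p = 0.0265) and Slc2a4, the insulin-sensitive glucose carrier (0.36 ± 0.11, adjusted p = 0.0342). Other probe sets of these genes differed less: Myh6 1448826_at by 0.05 (adjusted p = 0.453), the 3 others of Atp2a2 by 0.12, 0.09 and, at 1416551_at, -0.0037, and Slc2a4 1415958_at by 0.19, none called, while 2 of the 6 others of Klf9 were called (0.18 and 0.27). Named after their values were seen, Kcnd2, a potassium channel, was higher at both of its other probe sets (0.45 and 0.48), and Atp1b1 was lower at its 4 others (-0.15 to -0.26), while neither was called at the probe set of largest SD. The count of 4 became 1 without the 2 arrays of high lung markers and 1 with the Gapdh difference as a covariate. It was 2 without the arrays of high atrial markers and 0 in males alone. The share of all genes called in males alone is not given, so the 0 cannot be read as a trait of these genes. Of the genes lowered by T3, Pln (0.25 ± 0.063, adjusted p = 0.00818) and Adcy6 (0.24 ± 0.071, adjusted p = 0.0251) were higher, and Myh7 (-0.02) and Slc8a1 (0.00; -0.09 at 1440201_at) were not called. Pln 1460332_at differed by -0.03. At the probe set of largest SD, no receptor, transporter, coregulator, binding, ubiquitination or selenoprotein gene of the lists was called, and Dio1 was not (0.02, adjusted p = 0.854). Another probe set of the coactivator Kat2b, 1434037_s_at, was higher (0.13, adjusted p = 0.0173).

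**Figure D5:**
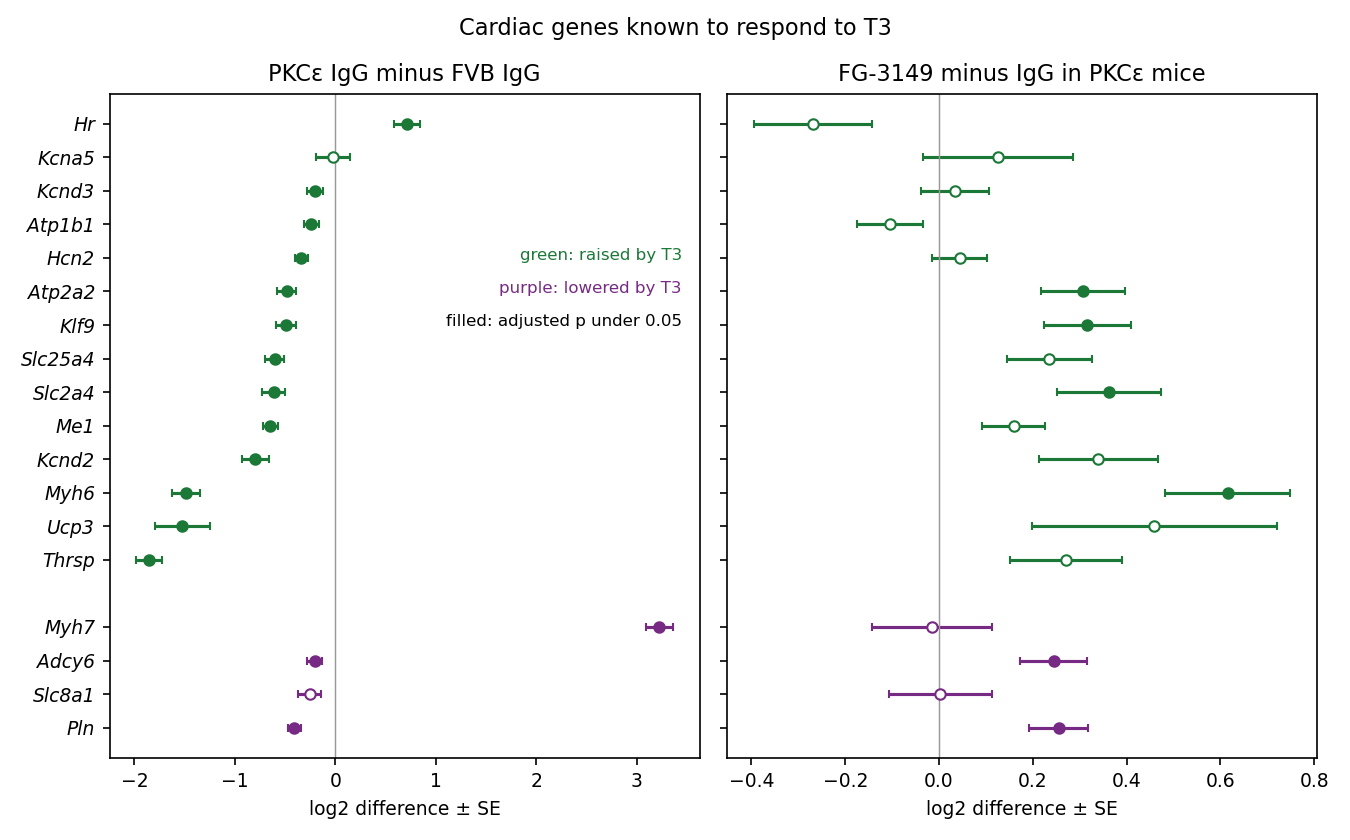
Log2 difference ± SE (x axis) of 18 listed genes known to respond to T3 (y axis). The left panel shows PKCε IgG minus FVB IgG and the right panel FG-3149 minus IgG in PKCε mice. Genes raised by T3 are green and genes lowered by T3 purple, filled where the adjusted p was under 0.05. On the left 12 of the 14 green genes are filled to the left of 0, and on the right 4 are filled to the right of 0.

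The genes whose log2 ratios ran most like Dio2 1418937_at over the 44 arrays, out of 12392 other genes, were Actn1 (Pearson r = 0.951), Timp1 (0.946), Tspo (0.942), Ltbp2 (0.940), Clec11a (0.939), Nupr1 (0.938), Nbl1 (0.938) and Postn (0.934). The most opposed were Slc25a20 (-0.921), Etfdh (-0.917), Pxmp2 (-0.916) and Hibadh (-0.913). These arrays share the 4 groups and the split by sex, so a gene that separates the groups gives a high value. Over deviations from the means of the 8 groups by line, treatment and sex, the highest values were S100a4 (0.785), Tspo (0.768), Lgals3 (0.754), Ptgr1 (0.752), Rnase4 (0.744), Lyz1 (0.741), Cd302 (0.739) and Fn1 (0.739), and the lowest Krt6b (-0.669), Qtrt1 (-0.656), Idh2 (-0.650) and Cacnb1 (-0.649). Tspo was the 1 gene on both lists. The deviations keep the split of FVB IgG females by atrial markers, and its part in these values was not tested.

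Among the members, the Dio2 probe sets correlated with one another over the arrays (1418937_at with 1418938_at 0.832 and with 1426081_a_at 0.782, and the last 2 with each other 0.920). Within the 8 groups the same values were 0.491, 0.113 and 0.382, all lower than over the arrays. Dio2 1418937_at and Rxrg gave -0.863 over the arrays and -0.534 within the groups, and Dio2 1418937_at and Thrb gave -0.252 and -0.591. The 8 groups do not remove the split of FVB IgG females by atrial markers. On the 5 FVB IgG arrays above 4, Dio2 1418937_at, Rxrg and Thrb averaged 0.45, -0.21 and -0.03. On the other 5 they averaged -0.89, 0.26 and 0.35. The part of this split in the correlations was not tested.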

How the data were processed

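Left ventricles of 44 mice were measured, with 1 array for each mouse. The authors processed the arrays by GCRMA (version not given in the sources used here) and GeneSpring GX 7.3.1, per the submitters' processing notes, and deposited linear ratios to the median: over the arrays, each of 22690 probe sets has a median that lies within 0.001 of 1. Brightness and detection are not in the deposited ratios, so how far a signal exceeds background cannot be read, and precision rests on the number of mice. No genome build of the probes is used here. Of the probe sets, 20393 matched 1 gene in the platform annotation, 691 several and 1606 none, and the 7 member probe sets each matched 1. Promoter sequences are RefSeq's on GRCm38.p6; the promoter of Thra and the proteins are not shown.

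Log2 of each deposited ratio was taken, with no value of a member at the lowest ratio of 0.01. The 64 control probe sets were left out. Groups were compared by lmFit and eBayes of limma 3.58.1 (R 4.3.3) on 22626 probe sets and all 44 arrays, as 4 groups and sex, or as 8 groups by line, treatment and sex for sex interactions, after the method had been tested on simulated data. Each array is a mouse with its own number in the labels. The atrial marker level is a mean of 3 log2 ratios, above 4 on 10 arrays; the lung markers Sftpc and Scgb1a1 were both above 3 on 2 arrays; 1 FVB FG-3149 array labelled female, replicate 11, carried a male Uty signal and was left out in an alternative. Members and lists were chosen with earlier results of these data known. Of each list, up to 4 genes with the lowest p were named for each main comparison (all of a list of up to 6), with probe sets of opposite sign, and the 8 genes most like and the 4 least like Dio2 1418937_at. Alternatives covered scaling, a pseudocount and a floor of 0.1, filtering, weights, a replicate block, fewer groups or mice, 1 sex, marker, clock and RNA quality covariates, a threshold of 0.01 and leaving out each array.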

Additional observations from a re-analysis of the deposited data

Results flagged for a closer look

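The PKCε effect under IgG was larger in females at Dio2 1426081_a_at (2.54) and Dio2 1418938_at (1.91). The antibody effect in PKCε mice differed between the sexes at the same probe sets, by -2.32 and -1.69. All rest on the 5 PKCε IgG females through which these probe sets were chosen, so they are given as a description, without a test.

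At Thra 1426997_at, 1 PKCε IgG array, replicate 9, stood apart from the other 9 of its group with a value of -0.38. It is 1 of the 2 arrays of high lung markers. Chance alone sets about 1 in 20 groups apart by this measure.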

How the results depend on the processing

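The Dio2 differences by sex are a description, since the same arrays chose the gene, so no count of calls under the alternatives is given for them.

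Between the lines under IgG, 1 receptor call in place of 3 remained with only the groups compared, in each sex alone, after adjustment for the Gapdh difference, without the 2 arrays of high lung markers, with clock score and Gapdh difference besides (chosen after seeing the data), and at 0.01. Without single arrays the count ran from 1 to 3. It was 1 without FVB IgG replicate 10 or PKCε IgG replicates 4, 5, 6, 8 or 10. For the antibody in PKCε mice, array weights gave 1 call in place of 0. Under FG-3149 the lines differed at 1 probe set in place of 2 with arrays centred on the median, in females alone, with the clock score as a covariate, in the alternative added after seeing the data, and at 0.01.

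The Dio2 1418937_at call in FVB mice was lost (0 calls in place of 1) with no sex term, with a replicate block, after quantile normalization, with a pseudocount of 0.1, in males alone, with the clock score, the Gapdh difference or the atrial marker level as covariates, without the arrays of high atrial markers, without the array that goes against its sex label, in the added alternative and at 0.01. Without single arrays the count ran from 0 to 1. It was 0 without FVB IgG replicates 1, 2, 3, 4, 7, 8 or 9 or FVB FG-3149 replicates 3, 5, 6, 7, 10, 11 or 12 (adjusted p up to 0.0901).

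The 12 genes raised by T3 that were lower between the lines became 7 in males alone. The 4 that were higher under the antibody became 2 in females alone, with the clock score, and without the arrays of high atrial markers; 1 with the Gapdh difference and without the 2 arrays of high lung markers; and 0 in males alone and in the added alternative. These alternatives for the lists were chosen after seeing the data. The share of all genes called under each is not given, and 1 sex alone leaves fewer mice. The smaller counts in males therefore cannot be read as a sex difference of these genes. Reversed in sign were Dio2 1426081_a_at between the lines in males alone (-0.036), its antibody difference between the lines in males alone (0.079) and that of Dio2 1418937_at in the added alternative (0.047). Where no cause is given by fewer arrays or mice, it was not tested.

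Replicate numbers did not pair the samples: 16 of 62 same-number pairs correlated above 0.1 (range -0.48 to 0.35), and 2 of 44 arrays correlated best with their own number. Apart from the FVB call above, which fell to 0, the replicate block changed no count of calls.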

Other observations

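Among the probe sets whose PKCε effect under IgG differed by sex, 3 neighbouring genes near the end of the X chromosome stood out after their values were seen: Msl3, Arhgap6 and Hccs, with Amelx between them in the RefSeq gene order. Msl3 1448645_at averaged 1.18 ± 0.051 (SD, n = 3) in FVB IgG males and 0.01 ± 0.25 (n = 7) in FVB IgG females. In PKCε IgG mice it averaged -0.13 ± 0.16 (n = 5) in males and -0.29 ± 0.17 (n = 5) in females. Hccs 1420890_at ran from 0.97 to 1.04 in FVB IgG males and averaged 0.03 ± 0.15 in FVB IgG females, against -0.08 ± 0.081 and -0.23 ± 0.17 in PKCε IgG males and females. FVB FG-3149 males were high as well, at 1.18 ± 0.082 for Msl3 and 1.06 ± 0.11 for Hccs (n = 6). Any comparison of the lines in males, that of Dio2 included, sets side by side mice that differ at these genes, and the origin of that difference was not tested.

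Other genes called for the sex difference of the PKCε effect were St14 (1.09), Crispld1 (2.29 and 1.83 at 2 probe sets), Chodl (2.92), Tnmd (2.07), Nkd2 (1.57 and 1.55), Bdnf (1.67), Cx3cl1 (1.15), Plod2 (0.85) and Lox (2.14), in each of which the PKCε effect was the higher one in females, as for Dio2. Apart from Dio2, which carries no test there, the genes called for the antibody effect by sex were St14 (-1.08) and Mapk14 (0.90).

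Tg and Tshr, markers of thyroid gland tissue, were lower in PKCε than in FVB mice under IgG (-0.93 and -0.18, both called by limma), and neither was called for the antibody in PKCε mice. Of 5 macrophage markers, 1 was higher in PKCε mice under IgG. Among all genes 20.7% were higher and 21.7% lower in that comparison.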
